A study of Mus musculus with 15 samples.

Results

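The 10 genes described here carry glucose into the cell, trap and split it, and send its product to lactate or to the mitochondrion. They are the glucose transporter Slc2a1, the hexokinases Hk1 and Hk2, the phosphofructokinase subunits Pfkp, Pfkl and Pfkm, the phosphofructokinase regulator Pfkfb3, the aldolase Aldoa, the pyruvate dehydrogenase kinase Pdk1 and the lactate exporter Slc16a3. They were chosen by name out of 19938 genes. Each was read by the probe set assigned to that gene alone, or by the brightest such probe set where a gene had several, which among the 10 applied to Hk1 only.

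RNA from mouse ventral prostate epithelium of the FVB strain was measured on 15 arrays in 5 groups of 3. The controls were primary prostate epithelial cultures with no transduced gene. The other cells came from such cultures after transformation by c-myc, neuT, ha-ras or v-src, and are called Myc, NeuT, Ras and Src. The series' design text gives 3 lines for each oncogene, but no label names the line behind an array, and neither the vectors nor their promoters are stated. Serum-containing medium was used for the lines throughout, while the controls were kept in primary culture medium until the night before harvest. This difference cannot be told apart from transformation in any comparison with control, and it is absent from comparisons among the oncogenes. No label gives the animals behind the controls, so p-values measure only the spread between these arrays, which may be technical.

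Normal epithelial cells oxidise much of their glucose carbon, whereas many tumour cells take up more glucose and release lactate even with oxygen present. Flux is set mainly at uptake, at hexokinase and at phosphofructokinase, which is activated by a sugar bisphosphate that the Pfkfb enzymes make and break down. Growth factor signalling, Myc and the hypoxia-inducible factors are each known to act on genes of this pathway. Prostate epithelium is unusual in that secretory cells release citrate instead of oxidising it.

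Against control, the genes split by isoform and by oncogene instead of rising as a block. Pfkp rose most, 3.73-fold in Ras and 2.99-fold in Src, while Pfkl rose in Myc, NeuT and Src, and Pfkm in Ras. Slc16a3 rose in Ras and Src, and Hk2 in Myc, NeuT and Src. Pfkfb3 fell in all 4 oncogene groups. At an adjusted p under 0.05 (limma, Benjamini-Hochberg over all genes, no minimum fold), 3 of 10 rose and 1 fell in Myc, 5 rose and 1 fell in NeuT, 5 rose and 1 fell in Ras, and 6 rose and 2 fell in Src. Over all genes the shares that rose were 15.9%, 15.2%, 13.3% and 14.2%, and the shares that fell 12.7%, 11.6%, 14.2% and 12.2%. Median log2 changes of the 10 were 0.03, 0.24, 0.50 and 0.50, against 0.03, 0.02, 0.02 and 0.06 over all genes. For the mean of the 4 oncogene groups, 6 rose and 1 fell, where 15.4% and 13.4% of all genes did. With the dimmer Hk1 probe set in place of the brighter, the counts of genes that rose were 2 in Myc, 6 in NeuT, 5 in Ras and 5 in Src, and the medians were -0.04, 0.50, 0.51 and 0.50. The genes were chosen with results of these data known, and the 4 comparisons share the same 3 control arrays.

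**Figure D1:**
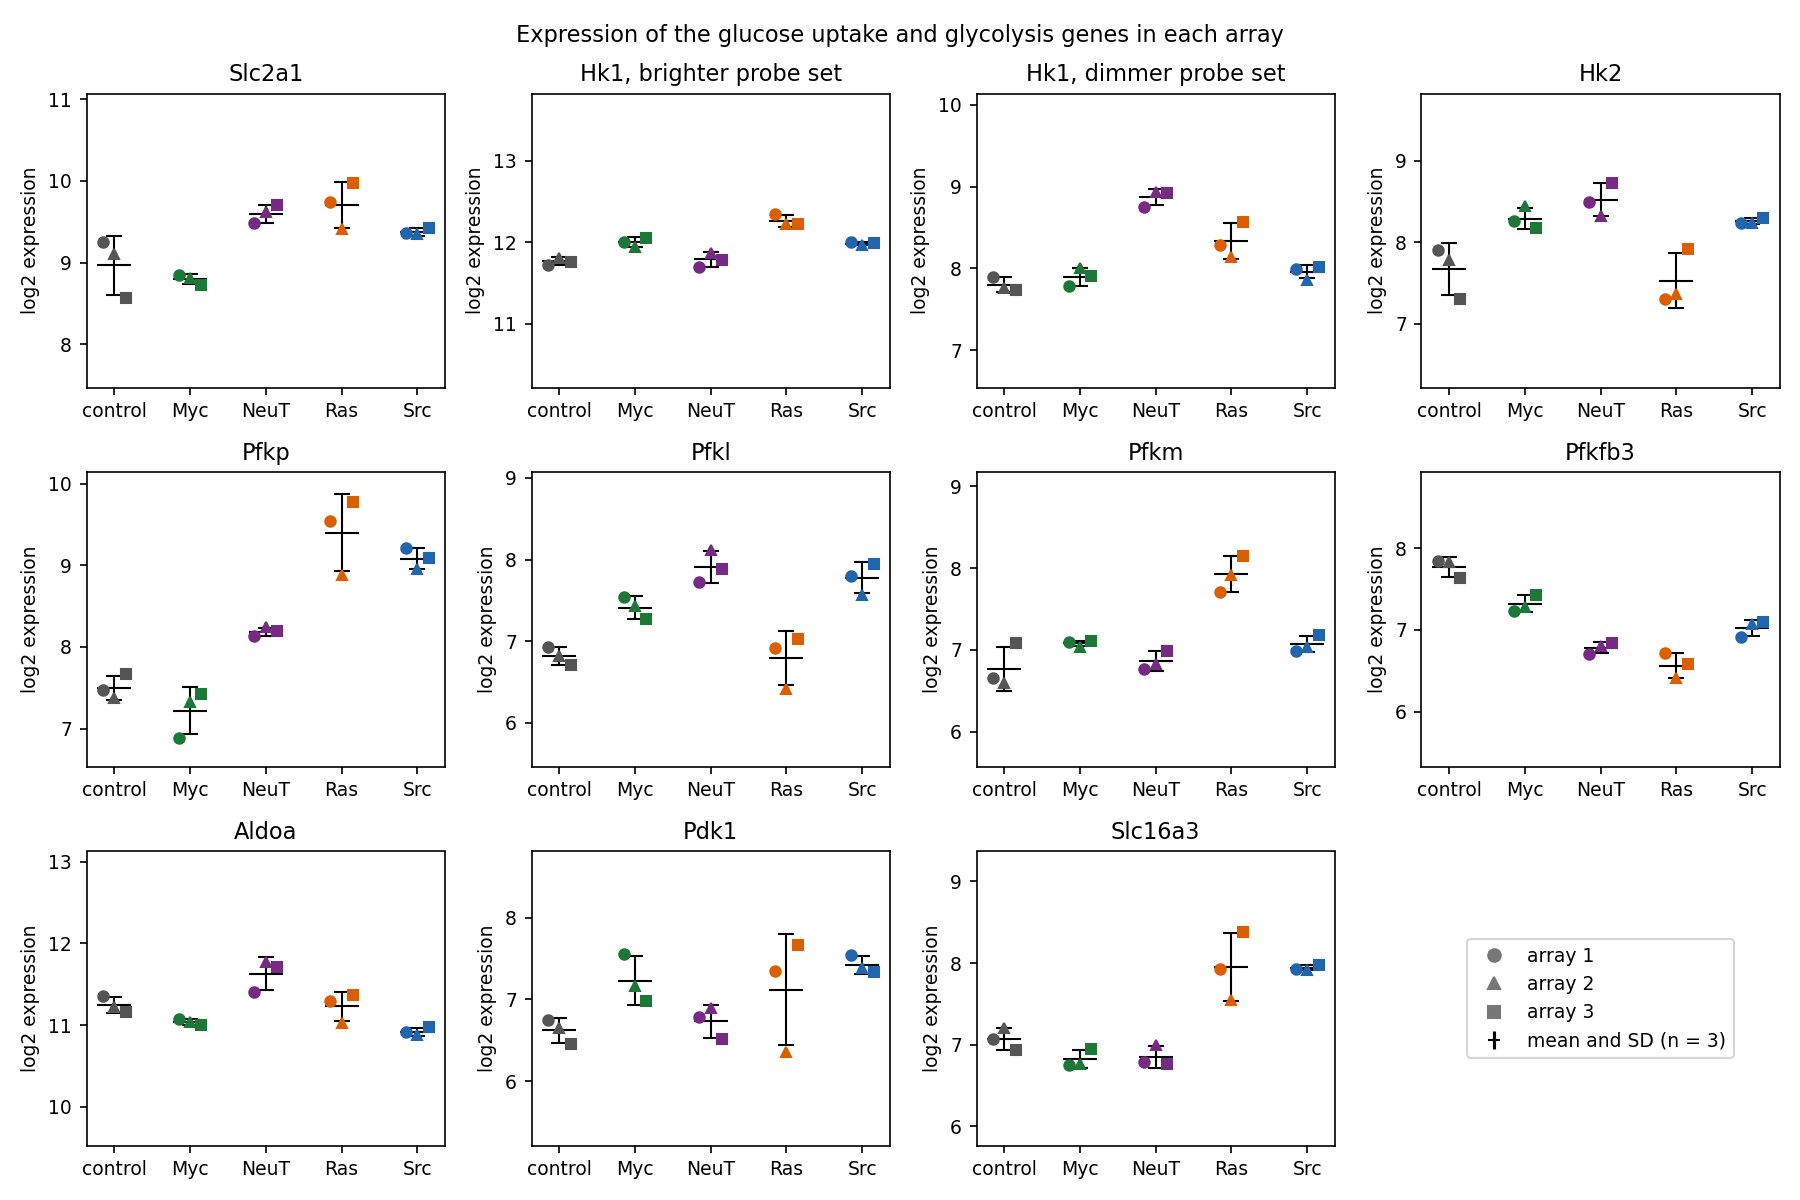
Log2 expression (vertical axis, the same span in every panel) of each gene in the 5 groups (horizontal axis). Symbols are arrays 1 to 3 of a group, and the bar and whiskers are the mean and SD. Pfkp lies between 8.88 and 9.78 in the 3 Ras arrays and between 6.89 and 7.43 in the Myc arrays.

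**Figure D2:**
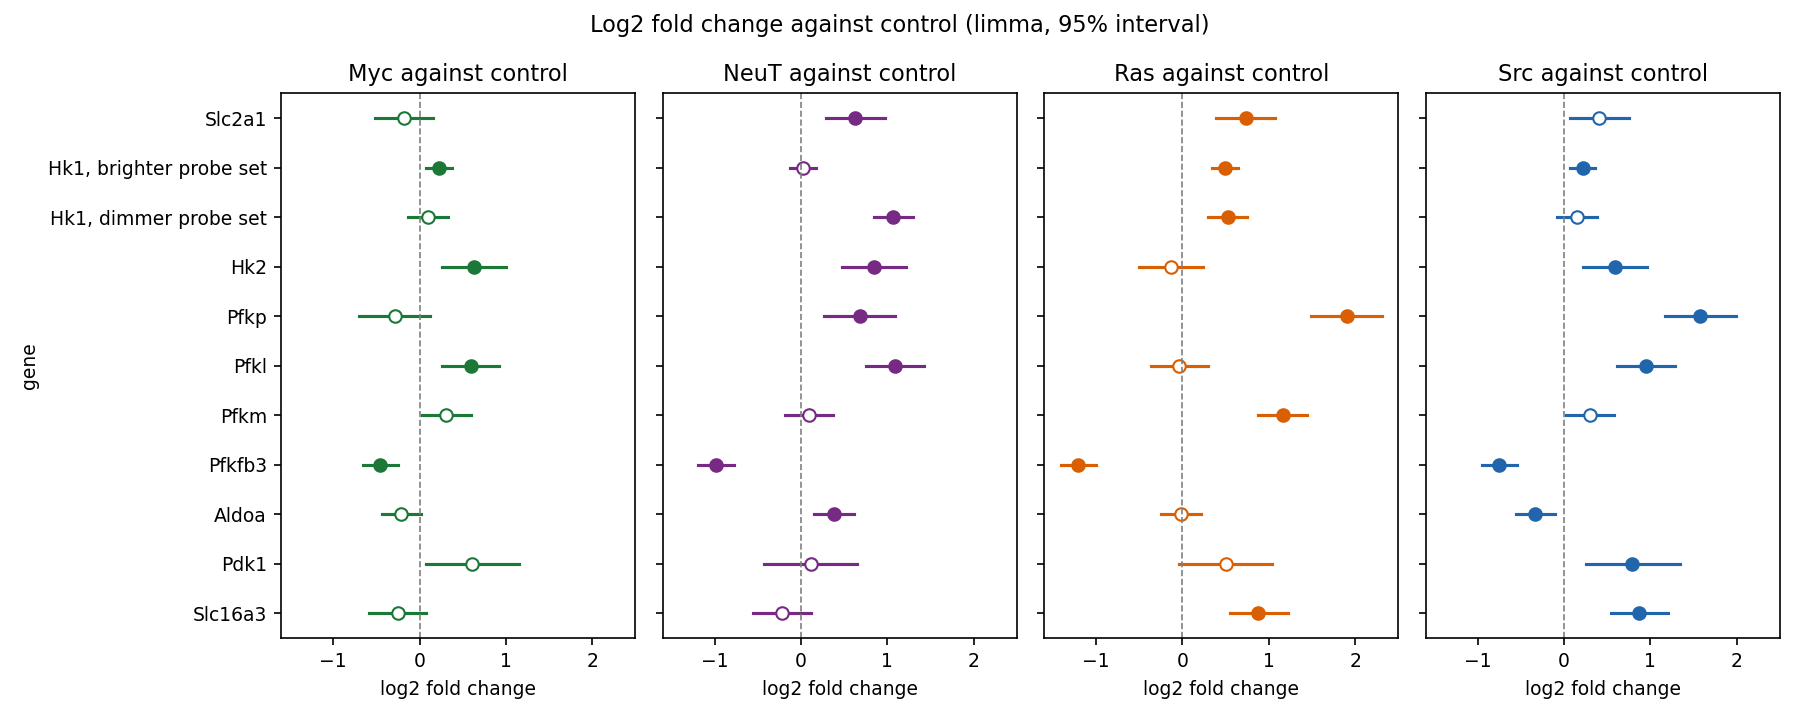
Log2 fold change against control (horizontal axis) with its 95% interval from limma, for each gene (vertical axis) in the 4 oncogene groups. Filled points passed an adjusted p under 0.05, and open points did not. Pfkfb3 lies left of 0 in all 4 panels, from -0.46 in Myc to -1.21 in Ras.

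Facts of the whole series bear on these values as follows. Array medians lay between 6.19 and 6.32 over all probe sets, and the median over all gene values was 6.47. Background was not measured here, so levels near or under 6.47 may lie close to it. Control array 3 carried transcripts of kidney tubules: 15 of 16 measured tubule markers were at least 2-fold above the average of control arrays 1 and 2 there, and the summed tubule signal was 9.87 to 14.07 (log2) over the controls against 9.78 to 9.99 over the lines. Of 6 endothelial markers, 5 were at least 2-fold higher in that array as well. In bulk RNA, fewer cells of a type and less RNA per cell cannot be told apart. Basal epithelial markers had a group mean at or above 6.47 for 6 of 6 genes in control and Src, 4 in Myc, 2 in NeuT and 1 in Ras, and luminal markers for 7 of 8 in control, 6 in Myc, NeuT and Src and 4 in Ras. These counts do not show the size of a change. The summed luminal signal was 14.06 to 14.40 (log2) in control, 13.46 to 13.58 in Myc, 13.95 to 14.12 in NeuT, 9.87 to 11.04 in Ras and 12.80 to 12.93 in Src. The transduced genes checked the labels in part. Erbb2, the mouse counterpart of neuT, was higher in NeuT than in control (log2 fold change 1.70 ± 0.13 SE, adjusted p = 4.27e-07, limma). In the group labelled Myc, the Myc transcript was below control (-0.92 ± 0.19, adjusted p = 0.00207), while it was above control in NeuT (1.26 ± 0.19, adjusted p = 0.000189) and Src (0.77 ± 0.19, adjusted p = 0.00926). The Src transcript did not pass in those labelled Src (0.05 ± 0.09, adjusted p = 0.743), and Hras had 0 probe sets of its own, so directions from these groups rest on the labels.

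The promoters of genes that moved in different directions are shown because hypoxia-inducible factors and Myc bind short motifs often found near such genes. The windows are the 250 bases before the start site, on the strand of the gene, from RefSeq on build GRCm38.p6, and all 10 genes matched, with 18 windows in all. Capitals mark ACGTG or its reverse complement CACGT, the core letters of the hypoxia response element. For Slc2a1 the window is chr4:119108495-119108744 on the plus strand, for Hk2 chr6:82774455-82774704 on the minus strand, for Slc16a3 chr11:120948817-120949066 on the plus strand, and for Pfkfb3, the upstream one of its 2 windows, chr2:11553930-11554179 on the minus strand.
Slc2a1: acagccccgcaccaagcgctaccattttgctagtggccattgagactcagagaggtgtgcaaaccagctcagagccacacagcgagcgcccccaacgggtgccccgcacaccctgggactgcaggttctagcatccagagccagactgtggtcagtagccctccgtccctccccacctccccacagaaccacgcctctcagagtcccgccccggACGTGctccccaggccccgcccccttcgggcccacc
Hk2: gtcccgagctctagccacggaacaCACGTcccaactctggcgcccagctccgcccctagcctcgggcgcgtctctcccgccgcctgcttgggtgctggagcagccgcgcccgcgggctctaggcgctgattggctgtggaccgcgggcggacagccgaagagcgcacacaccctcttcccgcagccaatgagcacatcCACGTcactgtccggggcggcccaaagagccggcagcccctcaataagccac
Slc16a3: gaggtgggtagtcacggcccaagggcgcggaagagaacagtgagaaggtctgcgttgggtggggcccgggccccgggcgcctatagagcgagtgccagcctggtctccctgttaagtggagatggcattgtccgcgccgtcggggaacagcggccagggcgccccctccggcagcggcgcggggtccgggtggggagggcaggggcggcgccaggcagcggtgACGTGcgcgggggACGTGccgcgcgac
Pfkfb3: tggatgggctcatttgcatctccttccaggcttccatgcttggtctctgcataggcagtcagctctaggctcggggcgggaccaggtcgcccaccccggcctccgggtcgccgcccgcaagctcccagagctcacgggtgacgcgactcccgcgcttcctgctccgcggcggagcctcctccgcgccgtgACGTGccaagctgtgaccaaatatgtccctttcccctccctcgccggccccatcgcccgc

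Slc2a1 holds 1 match, Hk2 2, Slc16a3 2 and this Pfkfb3 window 1. Pfkfb3 fell in all oncogene groups and Slc16a3 rose in 2, so genes with matches moved in both directions. Of the 10 genes, 6 had a match in at least 1 window (9 of 18 windows), and 16.6% of all 32851 windows had one. Windows of a gene can overlap, and the Aldoa match is a single site counted in overlapping windows. The 16.6% is a share of windows, so it is not a measure for the 6 of 10 genes, some of which have several windows. Searched on both strands, the Myc E-box CACGTG, which contains ACGTG, was in 1 window each of Pfkm and Pfkfb3 (2 of 18 windows) and in 6.02% of all windows. No match was found in the windows of Hk1, Pfkp, Pfkl or Pdk1, which says only that these letters are not there.

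Uptake was read through Slc2a1, which encodes GLUT1, the transporter that supplies most cell types with glucose. Its log2 level was 9.25, 9.10 and 8.57 in control arrays 1 to 3, 8.85, 8.81 and 8.73 in Myc, 9.48, 9.62 and 9.70 in NeuT, 9.74, 9.41 and 9.97 in Ras, and 9.36, 9.35 and 9.43 in Src. All NeuT, Ras and Src arrays lay above all control arrays, and the Myc arrays lay among the controls. Slc2a1 rose in NeuT (log2 fold change 0.63 ± 0.16 SE, 1.55-fold, adjusted p = 0.00809, limma) and in Ras (0.73 ± 0.16, 1.66-fold, adjusted p = 0.00269). In Src it was at 0.41 ± 0.16 (adjusted p = 0.0731) and in Myc at -0.18 ± 0.16 (adjusted p = 0.469). Among the oncogenes it was lower in Myc than in NeuT (-0.80 ± 0.16, adjusted p = 0.00295) and than in Ras (-0.91 ± 0.16, adjusted p = 0.000506). Its difference from Src (-0.58 ± 0.16, adjusted p = 0.018) was lost without Myc array 3 (adjusted p = 0.0609) or Src array 3 (adjusted p = 0.0603). Control array 3 was below the average of the other controls (log2 difference -0.61), and it moves these values. Without it, the changes were 0.42 in NeuT and 0.53 in Ras, both still called, the change of the pooled oncogene groups went from 0.40 (adjusted p = 0.0273) to 0.19 (adjusted p = 0.232), and Myc became a fall of -0.38 (adjusted p = 0.0384). The Src value passed without control array 1 (0.55, adjusted p = 0.0284) and without Ras array 2 (0.41, adjusted p = 0.0452), and the Ras call was lost when only Ras and control were fitted (adjusted p = 0.0619).

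Hexokinases phosphorylate glucose and so hold it in the cell, Hk1 as the widely expressed form and Hk2 as an inducible form of muscle, fat and tumours. Hk2 was at 7.91, 7.78 and 7.31 (log2) in the controls, 8.26, 8.44 and 8.18 in Myc, 8.49, 8.32 and 8.73 in NeuT, 7.31, 7.37 and 7.92 in Ras, and 8.24, 8.24 and 8.30 in Src. Every Myc, NeuT and Src array exceeded every control array, whereas the Ras arrays covered the range of the controls. Hk2 rose in NeuT (log2 fold change 0.85 ± 0.17 SE, 1.8-fold, adjusted p = 0.00178, limma), in Myc (0.63 ± 0.17, adjusted p = 0.0129) and in Src (0.59 ± 0.17, adjusted p = 0.0207). In Ras it was at -0.13 ± 0.17 (95% interval -0.50 to 0.24, adjusted p = 0.624). Ras was lower than Myc, NeuT and Src, by 0.76 and 0.98 against Myc and NeuT and at -0.73 as Ras minus Src (adjusted p = 0.00376, 0.000536 and 0.00601), and Myc, NeuT and Src did not pass a test against one another. Control array 3 differed from the other controls by -0.53. Without it the Src call was lost (0.42, adjusted p = 0.0728) and the pooled change went from 0.48 (adjusted p = 0.015) to 0.31 (adjusted p = 0.117). The Src call was also lost without Src array 2 (adjusted p = 0.0513) or 3 (adjusted p = 0.0613), and the Myc call without Myc array 2 (0.56, adjusted p = 0.0556).

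Hk1 had a pair of probe sets of its own, and they gave different answers. The brighter, taken by the rule, lists a single accession, J05277, and the same accession is listed for all 16 probe sets that the annotation shares between Hk1 and the ribosomal protein gene Rpl17, and among the accessions of the dimmer Hk1 probe set. Over the 15 arrays, which fall into 5 groups, the brighter probe set correlated with those 16 at r from 0.80 to 0.91 (median 0.87) and with the dimmer Hk1 probe set at -0.04. The dimmer one, which lists 8 accessions, correlated with the 16 at -0.21 to -0.05. Which transcripts the brighter probe set reads was not tested.

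The brighter Hk1 probe set was at 11.72, 11.81 and 11.76 in control, 12.00, 11.94 and 12.05 in Myc, 11.70, 11.87 and 11.78 in NeuT, 12.34, 12.22 and 12.22 in Ras, and 12.00, 11.96 and 11.99 in Src. It rose in Ras (log2 fold change 0.49 ± 0.07 SE, 1.41-fold, adjusted p = 8.09e-05, limma), in Myc (0.23 ± 0.07, adjusted p = 0.0216) and in Src (0.22 ± 0.07, adjusted p = 0.0349). NeuT was at 0.02 ± 0.07 (adjusted p = 0.891). The dimmer probe set was at 7.90, 7.76 and 7.74 in control, 7.79, 8.01 and 7.91 in Myc, 8.75, 8.94 and 8.92 in NeuT, 8.28, 8.14 and 8.57 in Ras, and 7.99, 7.86 and 8.02 in Src. All NeuT and Ras arrays of this probe set stood above the controls, with NeuT highest. Here Hk1 rose in NeuT (1.07 ± 0.11, 2.1-fold, adjusted p = 4.12e-06) and in Ras (0.53 ± 0.11, adjusted p = 0.00163), while Myc (0.10 ± 0.11, adjusted p = 0.555) and Src (0.15 ± 0.11, adjusted p = 0.307) did not pass. NeuT exceeded Ras by 0.54 ± 0.11 (adjusted p = 0.00129) with the dimmer probe set and was below it by -0.48 ± 0.07 (adjusted p = 0.000122) with the brighter. Only the rise in Ras was thus called with both probe sets. The smaller calls of the brighter one were lost without single arrays: in Myc without control array 1 or 3 or Myc array 1 or 3 (adjusted p = 0.0768, 0.0513, 0.0568 and 0.0796), and in Src without any 1 of the 3 control arrays (adjusted p = 0.105, 0.0505 and 0.0748) or the 3 Src arrays (adjusted p = 0.0886, 0.062 and 0.0805).

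**Figure D3:**
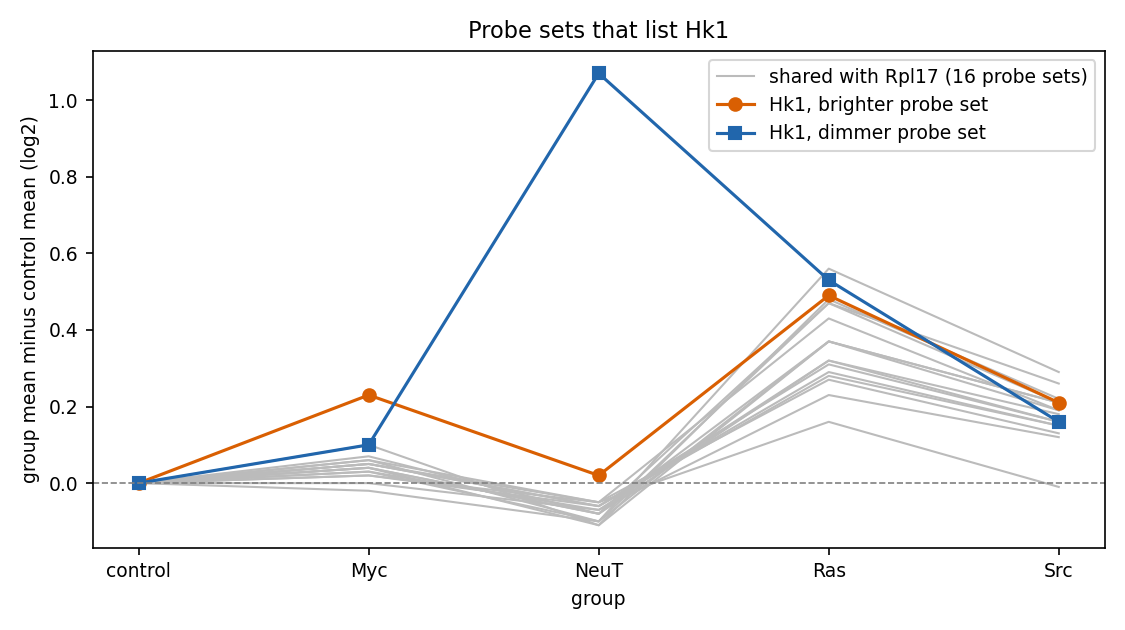
Group means relative to the control mean (log2, vertical axis) in the 5 groups (horizontal axis) for all probe sets that list Hk1: the 16 shared with Rpl17 as grey lines, the brighter Hk1 probe set in orange and the dimmer in blue. The dimmer one peaks in NeuT at 1.07, where the brighter is at 0.02.

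Phosphofructokinase commits glucose to glycolysis as a tetramer of subunits that differ in regulation, with Pfkm the muscle form, Pfkl the liver form and Pfkp the platelet form. The 3 subunit genes had different profiles over the oncogenes. Pfkp was at 7.47, 7.37 and 7.67 in control, 6.89, 7.33 and 7.43 in Myc, 8.13, 8.24 and 8.19 in NeuT, 9.54, 8.88 and 9.78 in Ras, and 9.21, 8.95 and 9.09 in Src. The Ras and Src arrays lay highest and overlapped each other, the NeuT arrays formed a middle level apart from both sides, and Myc overlapped control. Pfkp rose in Ras (log2 fold change 1.90 ± 0.19 SE, adjusted p = 3.4e-06, limma), in Src (1.58 ± 0.19, adjusted p = 3.27e-05) and in NeuT (0.68 ± 0.19, 1.6-fold, adjusted p = 0.0151), and in Myc was at -0.29 ± 0.19 (adjusted p = 0.306). Src exceeded NeuT by 0.90 ± 0.19 (adjusted p = 0.00371), and Ras was not distinguished from Src (0.32 ± 0.19, 95% interval -0.09 to 0.73, adjusted p = 0.256) unless Ras array 2 was left out (0.58, adjusted p = 0.0111). The NeuT call was lost without control array 2 (0.61, adjusted p = 0.0556) or NeuT array 2 (0.66, adjusted p = 0.0512). The range of its 5 group means, 2.19, was larger than that of 96.7% of all genes and the widest of the 10.

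Pfkl ran otherwise. It was at 6.93, 6.82 and 6.71 in control, 7.54, 7.43 and 7.27 in Myc, 7.72, 8.12 and 7.89 in NeuT, 6.92, 6.41 and 7.03 in Ras, and 7.80, 7.57 and 7.95 in Src. The Ras arrays spanned the controls, and every other line array was above them. Pfkl rose in NeuT (1.09 ± 0.15, 2.13-fold, adjusted p = 0.000101, limma), Src (0.95 ± 0.15, 1.94-fold, adjusted p = 0.000415) and Myc (0.59 ± 0.15, 1.5-fold, adjusted p = 0.00992), and in Ras was at -0.04 ± 0.15 (95% interval -0.37 to 0.30, adjusted p = 0.901). Ras was below NeuT by 1.12 ± 0.15 (adjusted p = 7.21e-05), below Myc by 0.62 ± 0.15 (adjusted p = 0.0069) and differed from Src by -0.99 ± 0.15 (adjusted p = 0.000258). Myc passed narrowly against NeuT (-0.50 ± 0.15, adjusted p = 0.0441), a call lost without control array 1 or 2, any 1 Myc array, NeuT array 2 or 3, or Src array 1, with adjusted p up to 0.194.

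Pfkm rose in Ras alone among the calls. Its levels were 6.65, 6.59 and 7.08 in control, 7.09, 7.04 and 7.11 in Myc, 6.76, 6.83 and 6.99 in NeuT, 7.71, 7.92 and 8.15 in Ras, and 6.99, 7.03 and 7.18 in Src, so that the Ras arrays stood above all 12 others. The change in Ras was 1.16 ± 0.13 (2.23-fold, adjusted p = 1.04e-05, limma), and Ras exceeded Src by 0.86 ± 0.13 (adjusted p = 0.000199) and Myc by 0.85 ± 0.13 (adjusted p = 0.000189). NeuT minus Ras was -1.07 ± 0.13 (adjusted p = 2.47e-05). Control array 3 was 0.46 above the other controls, and without it Myc (0.46, adjusted p = 0.00641) and Src (0.45, adjusted p = 0.01) rose too. Markers of smooth and skeletal muscle, 9 measured genes, summed to 9.37 to 9.92 (log2) in the Ras arrays and to 10.74 to 11.29 in the controls, a sum carried by smooth muscle Acta2 (9.88 to 10.54 in the controls, 6.09 to 7.49 in Ras). Of the skeletal markers, Acta1 was lower in Ras (7.85 to 8.56 in the controls, 7.10 to 7.31 in Ras). Ckm (7.00 to 7.11 in the controls, 7.13 to 7.51 in Ras) and Tnnt3 (6.72 to 6.86 and 6.61 to 6.94) were not lower throughout. Myl1 and Myh4 lay under 6.47 in all these arrays. The part of muscle cells was not tested.

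Set against each other within arrays, relative to the mean of the controls, Pfkp moved above Pfkl by 1.93 ± 0.14 (SD, n = 3, log2) in Ras and by 0.63 ± 0.14 in Src, and below it in NeuT (-0.41 ± 0.15) and Myc (-0.88 ± 0.41). Pfkl moved above Pfkm by 1.00 ± 0.21 in NeuT and 0.66 ± 0.15 in Src, and below it in Ras (-1.19 ± 0.36). The corresponding spread of the controls was 0.24 for Pfkp against Pfkl and 0.36 for Pfkl against Pfkm. These are differences of changes, which show unequal movement and no order of abundance, and they were not tested.

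Pfkfb3 makes the bisphosphate that activates phosphofructokinase and is often induced in tumours and by low oxygen. Here it was lower in all oncogene groups. Its level was 7.84, 7.83 and 7.63 in control, 7.23, 7.28 and 7.43 in Myc, 6.70, 6.80 and 6.84 in NeuT, 6.71, 6.41 and 6.58 in Ras, and 6.91, 7.07 and 7.09 in Src. The lowest control array was above the highest of the 12 line arrays. Pfkfb3 fell by 1.21 ± 0.10 (log2, SE) in Ras (adjusted p = 3.27e-07, limma), by 0.99 ± 0.10 in NeuT (adjusted p = 3.26e-06), by 0.75 ± 0.10 in Src (adjusted p = 5.55e-05) and by 0.46 ± 0.10 in Myc (adjusted p = 0.0021). All 4 calls held without any single array. In order of level, control stood above Myc, Ras and NeuT were lowest and not distinguished (NeuT minus Ras 0.22 ± 0.10, adjusted p = 0.112), and Src was not distinguished from NeuT (adjusted p = 0.0998). Myc passed narrowly against Src (0.29 ± 0.10, adjusted p = 0.0456), and among the fits that leave out 1 array the call held without control array 3, Ras array 1 or Ras array 2 and was lost in the others, with adjusted p up to 0.168 without Myc array 3.

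Downstream of these steps, Aldoa encodes the main aldolase of muscle and most growing cells, which splits the hexose. Its levels were 11.36, 11.22 and 11.16 in control, 11.08, 11.04 and 11.00 in Myc, 11.40, 11.77 and 11.71 in NeuT, 11.29, 11.03 and 11.37 in Ras, and 10.91, 10.88 and 10.98 in Src. NeuT lay above and Src and Myc below all controls, with narrow gaps. Aldoa rose in NeuT (log2 fold change 0.38 ± 0.11 SE, 1.3-fold, adjusted p = 0.0149, limma) and fell in Src (-0.33 ± 0.11, adjusted p = 0.0359), and NeuT exceeded Src by 0.71 ± 0.11 (adjusted p = 0.000283) and Myc by 0.59 (Myc minus NeuT -0.59 ± 0.11, adjusted p = 0.00163). The 2 calls against control were fragile. That in NeuT was lost without NeuT array 2 (adjusted p = 0.0787) or 3 (adjusted p = 0.0654), and that in Src without control array 1 or 2 (adjusted p = 0.121 and 0.0646) or any 1 Src array (adjusted p = 0.0852, 0.1 and 0.0589).

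Pdk1 encodes a kinase that switches off pyruvate dehydrogenase and so limits the oxidation of pyruvate inside the mitochondrion. It is a known target of hypoxia-inducible factors. It was at 6.75, 6.65 and 6.46 in control, 7.56, 7.16 and 6.98 in Myc, 6.78, 6.90 and 6.51 in NeuT, 7.35, 6.36 and 7.66 in Ras, and 7.54, 7.38 and 7.33 in Src. All Myc and Src arrays were above the controls, and Ras array 2 lay below every control while the other Ras arrays lay above them. The Src change passed (log2 fold change 0.79 ± 0.25 SE, 1.73-fold, adjusted p = 0.0317, limma), but not without control array 2 or 3 (adjusted p = 0.0619 and 0.0713) or any 1 Src array (adjusted p = 0.0934, 0.0712 and 0.0611). Myc was at 0.61 ± 0.25 (adjusted p = 0.0906), Ras at 0.50 ± 0.25 (adjusted p = 0.17) and NeuT at 0.11 ± 0.25 (adjusted p = 0.829). Without Ras array 2, Ras rose by 0.88 (adjusted p = 0.00153), and with the smaller spread then estimated Myc passed as well (adjusted p = 0.00707). Without Ras array 3, Myc passed at adjusted p = 0.0466. Pdk1 was the only gene of the 10 with no difference called among the 4 oncogene groups (limma F test, adjusted p = 0.164), where 9 of 10 and 42.1% of all genes differed. Without Ras array 2 all 10 differed, and Pdk1 was then lower in NeuT than in Ras (-0.78, adjusted p = 0.00354) and than in Src (-0.69, adjusted p = 0.00515). The difference between NeuT and Src, not called with all arrays (adjusted p = 0.0725), passed also without Ras array 3 (adjusted p = 0.0363), without dim genes (adjusted p = 0.0414) and with only those groups fitted (adjusted p = 0.00111).

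Slc16a3 encodes MCT4, a lactate exporter of glycolytic cells. It was at 7.07, 7.20 and 6.94 in control, 6.75, 6.76 and 6.95 in Myc, 6.79, 7.00 and 6.76 in NeuT, 7.93, 7.55 and 8.38 in Ras, and 7.93, 7.92 and 7.98 in Src. The arrays thus fell into 2 levels, with Ras and Src high and the other groups low and overlapping. Slc16a3 rose 1.85-fold in Ras (log2 fold change 0.88 ± 0.16 SE, adjusted p = 0.000575, limma) and 1.83-fold in Src (0.87 ± 0.16, adjusted p = 0.00088), while Myc (-0.25 ± 0.16, adjusted p = 0.272) and NeuT (-0.22 ± 0.16, adjusted p = 0.36) did not pass. Ras exceeded Myc and NeuT (adjusted p = 7.05e-05 and 8.82e-05), as did Src (adjusted p = 0.000153 and 0.000177), and Ras was not distinguished from Src (0.01 ± 0.16, 95% interval -0.33 to 0.34). These calls held without any single array. The pooled change, 0.32 (adjusted p = 0.0672), passed without Ras array 2 (0.37, adjusted p = 0.00769) or 3 (0.27, adjusted p = 0.0317).

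Comparisons among the oncogenes, which are free of the difference in culture, divided the 10 genes as follows. Between Myc and Ras, 3 were higher in Myc (Hk2, Pfkl and Pfkfb3) and 5 lower, where 16.6% and 11.8% of all genes were. Between NeuT and Ras, 3 were higher in NeuT (Hk2, Pfkl and Aldoa) and 4 lower, against 16.5% and 11.6%. The 4 include Hk1 by the brighter probe set. By the dimmer probe set Hk1 was higher in NeuT, which gave 4 higher and 3 lower. The Aldoa difference there, 0.40 (adjusted p = 0.011), was lost without NeuT array 2 or 3 or Ras array 2 (adjusted p = 0.0595, 0.0512 and 0.05). Between Ras and Src, 3 were higher in Ras and 3 lower, against 12.1% and 14.1%, with Hk1 (brighter probe set), Pfkm and Aldoa higher and Hk2, Pfkl and Pfkfb3 lower. The Aldoa value passed narrowly (0.31, adjusted p = 0.0456), and the call held without control array 1 or 3, NeuT array 1 or 2 or Ras array 2 but was lost without any 1 of the other 10 arrays, with adjusted p up to 0.165 without Ras array 3. Between Myc and NeuT, 1 was higher and 4 lower in Myc (6.99% and 7.95% of all genes), between Myc and Src 1 and 3 (11.4% and 7.57%), and between NeuT and Src 1 and 2 (12.2% and 7.95%). With the dimmer Hk1 probe set, 5 were lower in Myc than NeuT, and 2 were higher and 2 lower in NeuT than Src.

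The 3 Ras arrays differed more from one another than the arrays of the other oncogene groups did. In Ras array 2, 8 of 10 had their lowest Ras value, against 27.8% of all genes, and the median difference from the mean of the other Ras arrays was -0.37 for the 10 and 0.06 over all genes. The gaps were widest for Pdk1 (-1.14), Pfkp (-0.78), Slc16a3 (-0.60) and Pfkl (-0.57), and Pfkm was at -0.01. Some fibroblast and smooth muscle markers were highest in the same array: in Ras arrays 1 to 3, Dcn was at 8.04, 8.96 and 7.52, Acta2 at 6.53, 7.49 and 6.09, Cnn1 at 5.66, 7.01 and 5.53 and Pdgfrb at 5.68, 6.38 and 5.67. Others did not stand out there: Col3a1 was at 6.73, 6.78 and 6.92, Myh11 at 6.07, 6.04 and 6.19 and Col1a1 at 7.08, 7.14 and 6.94. The 8 fibroblast markers summed to 9.55 to 10.17 (log2) in the Ras arrays and 9.42 to 9.64 in the controls. This sum was carried largely by Dcn (6.78 to 7.39 in the controls), while Col1a1 (7.11 to 7.17 in the controls) was not higher in Ras. The part of such cells in these values was not tested. The groups of 3 were not labelled by line, so whether an array stands for a line was not tested. Replicates correlated across genes at r from 0.980 to 0.987 in Ras, 0.994 to 0.996 in Myc and Src, 0.995 to 0.996 in NeuT and 0.955 to 0.997 in control.

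Other genes of glucose metabolism, 101 in 9 lists, were read for context, 91 of them with a probe set of their own. Over these 91, 17 rose and 15 fell in Myc, 16 and 19 in NeuT, 14 and 23 in Ras and 12 and 15 in Src, with log2 medians of -0.01, -0.03, -0.19 and -0.03. Over all genes 15.9%, 15.2%, 13.3% and 14.2% rose and 12.7%, 11.6%, 14.2% and 12.2% fell, so several of these counts lie near the share of all genes. Gapdh is assigned only in 25 probe sets shared with other genes, and Gpi1, Eno1, G6pdx and the remaining unmatched genes were not analysed here. The lists were made with earlier results of these data known.

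Among other glycolytic enzymes, 10 measured, 3 rose in Myc, 2 in NeuT, 5 in Ras and 2 in Src, and 0 fell in any, where 13.3% to 15.9% of all genes rose and 11.6% to 14.2% fell. Pgam1, a phosphoglycerate mutase, rose in all 4 groups, from 0.43 ± 0.11 (log2, SE) in Ras (adjusted p = 0.0107, limma) to 0.86 ± 0.11 in Src (adjusted p = 8.01e-05). Eno3, the muscle enolase, rose most. It went from 6.95 ± 0.14 (SD, n = 3) in control to 9.93 ± 0.38 in Ras (log2 fold change 2.98 ± 0.19 SE, adjusted p = 4.11e-08) and 8.58 ± 0.41 in Myc (1.63 ± 0.19, adjusted p = 1.83e-05), with NeuT (0.09 ± 0.19) and Src (-0.19 ± 0.19) not called. Eno2, the neuronal enolase, rose in Ras (0.91 ± 0.10, adjusted p = 7.76e-06), to a level of 6.53. Of other transporters and hexokinases, 13 measured, 0 rose and 0 fell in Ras, 1 fell in Myc and NeuT, and 1 rose and 1 fell in Src. Slc2a2 and the kidney transporter Slc5a2 exceeded the average of control arrays 1 and 2 by 2.05 and 3.09 in control array 3 and did not pass in any group.

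The lactate genes moved in opposite directions. Slc16a1, which encodes the lactate and pyruvate transporter MCT1, rose in all 4 groups: by 2.17 ± 0.19 (log2, SE) in Myc (adjusted p = 1.46e-06, limma), 1.44 ± 0.19 in NeuT (adjusted p = 6.2e-05), 1.41 ± 0.19 in Ras (adjusted p = 6.5e-05) and 1.17 ± 0.19 in Src (adjusted p = 0.000486). Emb, an ancillary protein of monocarboxylate transporters, fell, with log2 changes of -3.07 ± 0.30 in Ras (adjusted p = 2.99e-06), -2.65 ± 0.30 in NeuT (adjusted p = 1.54e-05) and -1.64 ± 0.30 in Myc (adjusted p = 0.000808). Its mean levels there were 5.10, 5.52 and 6.53, near or under 6.47, and may lie close to background. Emb fell less in Src (-1.15 ± 0.30, adjusted p = 0.0125), to a mean of 7.02. Ldhb, the lactate dehydrogenase subunit of oxidative tissues, was at 7.77, 6.94 and 10.73 in the controls and at 5.07 to 6.19 in the lines. It is also abundant in kidney, whose markers were high in the same array. Its log2 changes were -3.20 in Myc, -3.16 in NeuT, -3.16 in Ras and -2.45 in Src. Without control array 3 they were -2.07, -2.04, -2.04 and -1.33, all called (adjusted p = 8.15e-07, 1.03e-06, 7.3e-07 and 8.64e-05). Levels of Ldhb in the lines were under 6.47 and may lie close to background, which leaves the size of these falls uncertain. Ldha, the subunit of glycolytic tissues and named after its values were seen, had changes from 0.28 to 0.40 that passed in Myc (adjusted p = 0.0468) and NeuT (adjusted p = 0.0205).

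Around the phosphofructokinase step, Pfkfb2, another maker of the activating bisphosphate, fell in Myc (-0.81 ± 0.11, adjusted p = 6.71e-05, limma) and Ras (-0.67 ± 0.11, adjusted p = 0.000383), and without control array 3 also in NeuT (-0.43, adjusted p = 0.00652) and Src (-0.33, adjusted p = 0.0319). Fbp2, a fructose bisphosphatase that works against phosphofructokinase, fell in all 4 groups at log2 changes of -1.61 in Myc, -1.44 in NeuT, -1.47 in Ras and -1.35 in Src (adjusted p from 0.00807 to 0.0263). The Src call was lost without any 1 Src array (adjusted p = 0.0511, 0.0664 and 0.0793). Control array 3 was 2.15 above the other controls in Fbp2, and without it these were -0.89, -0.72, -0.75 and -0.63 (adjusted p = 0.000361, 0.00231, 0.00155 and 0.00715). Group means of Fbp2 in the lines ran from 5.79 in Myc to 6.06 in Src, under 6.47, so they may lie close to background. Among genes of pyruvate use in mitochondria, Pdp1, the phosphatase that opposes Pdk1 on pyruvate dehydrogenase, rose in all 4 groups, from 0.85 ± 0.11 in Src (adjusted p = 8.45e-05) to 1.11 ± 0.11 in NeuT (adjusted p = 5.59e-06). Dlat, a core subunit of that complex, fell in NeuT, Ras and Src, by 0.56 ± 0.07 in Ras (adjusted p = 2.89e-05). Pdp2, listed with Pdp1, rose in NeuT (0.50 ± 0.16, adjusted p = 0.0335) and fell in Ras (-0.53 ± 0.16, adjusted p = 0.0248). It was not called in Myc or Src. The NeuT and Ras calls of Pdp2 were kept in 16 and 18 of 22 alternative settings.

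In the branch pathways, Psat1 and Shmt2, which make serine from a glycolytic intermediate and pass its carbon on, rose in all 4 groups, Psat1 by 2.02 ± 0.14 in Myc (adjusted p = 1.42e-07, limma) and Shmt2 by 2.15 ± 0.13 in NeuT (adjusted p = 4.32e-08). The hexosamine gene Pgm3 fell in NeuT (-0.52 ± 0.11), Ras (-0.61 ± 0.11) and Src (-1.20 ± 0.11, adjusted p = 2.13e-06). Gnpnat1 rose in Myc (0.69 ± 0.12) and fell in NeuT (-0.59 ± 0.12) and Src (-0.75 ± 0.12). Of 10 serine and hexosamine genes, 6 rose and 2 fell in Myc, 4 and 3 in NeuT, 2 and 2 in Ras and 2 and 4 in Src. Over all genes, 13.3% to 15.9% rose and 11.6% to 14.2% fell. Of 6 pentose phosphate genes, 0 rose and 3 fell in Ras, while 2 rose and 0 fell in Myc and in NeuT. Of all genes, 13.3% rose and 14.2% fell in Ras, 15.9% and 12.7% in Myc and 15.2% and 11.6% in NeuT. With 6 genes these counts are small, and the difference in counts between the groups was not tested. Tkt, the transketolase, fell by 1.00 ± 0.15 in Ras (adjusted p = 0.000117), and Rpia, the ribose phosphate isomerase, fell there by 0.70 ± 0.13 (adjusted p = 0.0011) and rose in NeuT (0.69 ± 0.13, adjusted p = 0.00143). Mean levels of Rpia were 6.41 in control and 5.71 in Ras, under 6.47, and may lie close to background. Of 9 glycogen genes, Ugp2, which makes the glucose donor for glycogen, fell in all 4 groups, from -0.79 ± 0.13 in Src (adjusted p = 0.000407) to -1.14 ± 0.13 in NeuT (adjusted p = 1.17e-05). The branching enzyme Gbe1 was lower in NeuT (-0.74 ± 0.11, adjusted p = 0.000149) and higher in Src (0.63 ± 0.11, adjusted p = 0.000781). It was also lower in Myc (-0.46 ± 0.11, adjusted p = 0.00558) and higher in Ras (0.41 ± 0.11, adjusted p = 0.0112). The Ras call was kept in 20 of 22 alternative settings.

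Among regulators, Hif1a, a subunit of the hypoxia-inducible factor that is controlled mainly at the protein level, was at 9.90 ± 0.09 (SD, n = 3) in control, 9.63 ± 0.16 in Myc, 9.49 ± 0.14 in NeuT, 10.35 ± 0.27 in Ras and 10.60 ± 0.05 in Src. It fell in NeuT (log2 fold change -0.41 ± 0.12 SE, adjusted p = 0.0237, limma), a call lost without control array 1 or 2 or NeuT array 2 or 3 (adjusted p = 0.0601, 0.0773, 0.0938 and 0.0815) and with median centring (adjusted p = 0.0743). It rose in Src (log2 fold change 0.70 ± 0.12 SE, adjusted p = 0.000835, limma) and Ras (0.45 ± 0.12, adjusted p = 0.0144), though the Ras call was lost without Ras array 3 (0.33, adjusted p = 0.0673) and with only Ras and control fitted (adjusted p = 0.0863). The Myc antagonist Mxi1 rose in Myc (0.61 ± 0.10, adjusted p = 0.000229) and fell in Ras (-0.63 ± 0.10, adjusted p = 0.000176). It also fell in Src (-0.29 ± 0.10, adjusted p = 0.0393), a call lost without control array 3 (adjusted p = 0.0905).

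**Figure D4:**
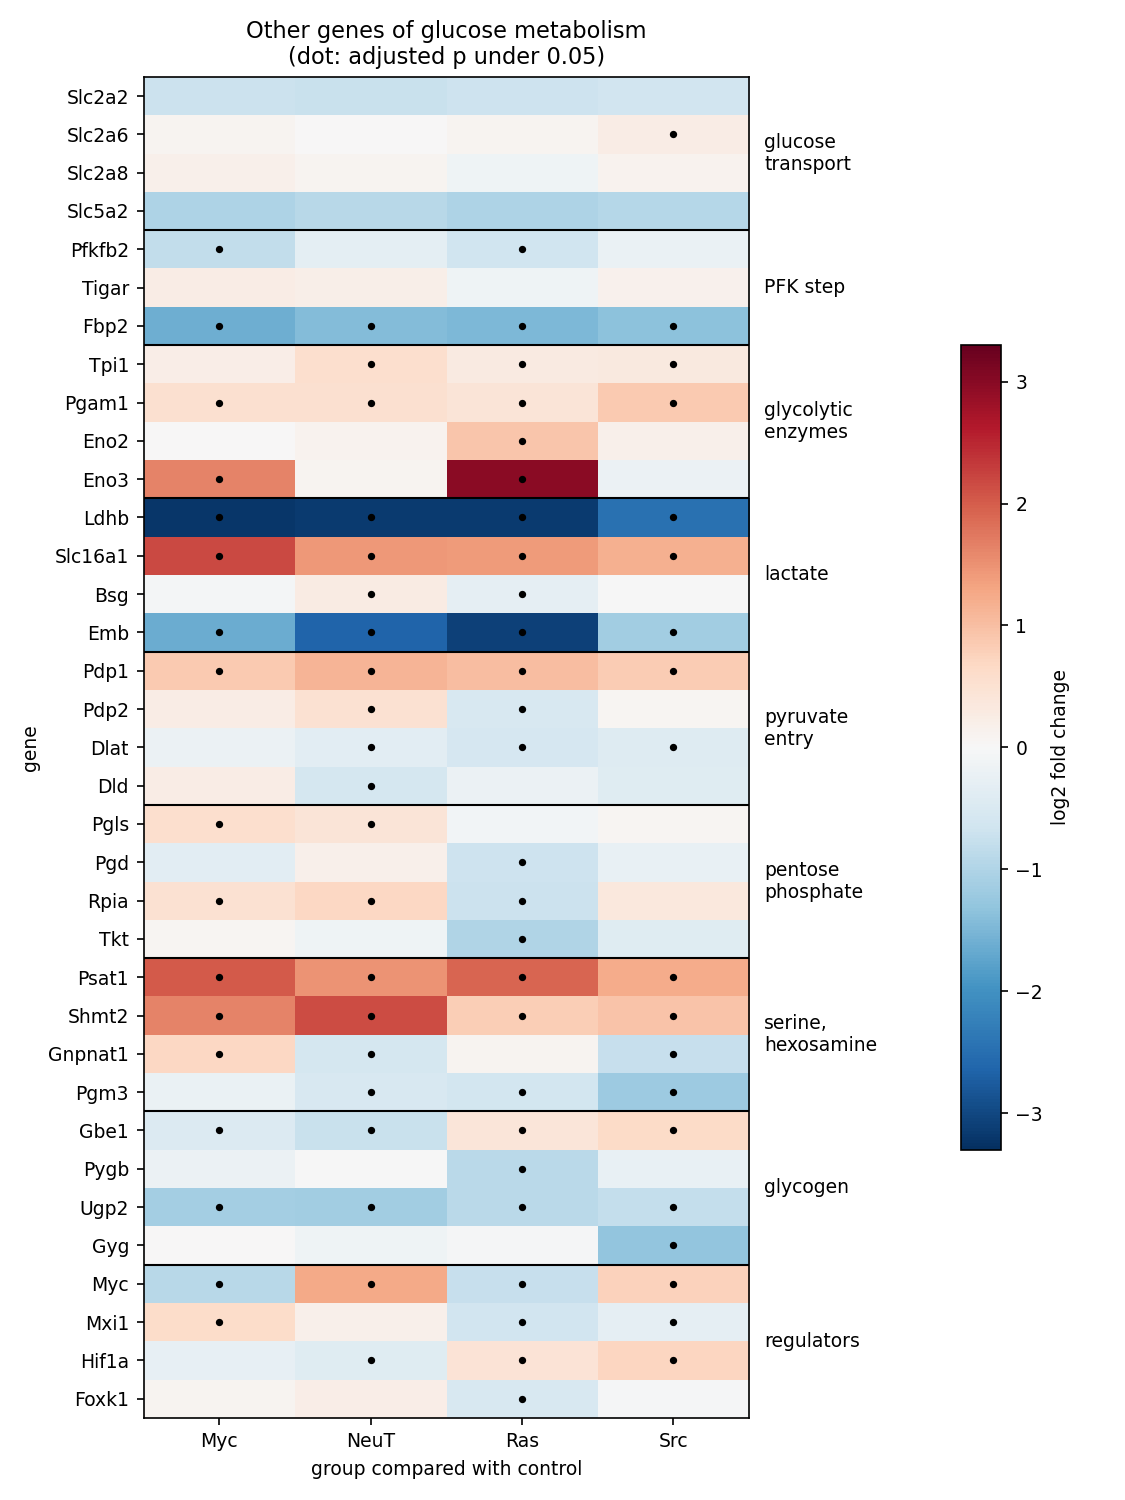
Log2 fold change against control (colour) of the genes named from the 9 lists (vertical axis, up to 4 a list by the F test over the 5 groups) in the 4 oncogene groups (horizontal axis). Dots mark an adjusted p under 0.05. Slc16a1, Psat1, Shmt2 and Pdp1 are higher and Ldhb, Emb and Ugp2 lower in every column.

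Likeness of profile over the 15 arrays was described for the 3 genes with the widest range of group means, among 9726 named genes with a mean at or above 6.47. Pfkp was most like Lancl3 (r = 0.941), Tnfrsf1a (r = 0.933) and Aff2 (r = 0.933), Pfkfb3 most like Sesn3 (r = 0.968), Il18r1 (r = 0.954) and Clca3b (r = 0.948), and Pfkm most like Oaf (r = 0.945), Znrd1 (r = 0.940) and Dpy19l3 (r = 0.938). The arrays fall into 5 groups that share culture and oncogene, so these values describe group levels. Il18r1, a subunit of the interleukin 18 receptor, went from 10.69 in control to 8.98 in Myc, 7.90 in Src, 6.90 in NeuT and 5.19 in Ras, the same order as Pfkfb3.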

How the data were processed

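Total RNA of 15 samples was amplified, labelled with biotin and hybridised to arrays. The deposited values are log2 expression per probe set, which the authors had already normalized, and the submitters' processing notes list RMA together with Affymetrix Expression Console 1.1. Genome build and background settings were not stated. Of 35556 probe sets, 21789 had 1 gene, 1621 several and 12146 none. Single-gene probe sets were used, the brightest by mean for the 999 genes with several, giving 19938 genes with no filter on low values. RefSeq held the Entrez identifier of 21698 probe sets with 1 gene, and 0 symbols changed.

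With limma 3.58.1 (lmFit, eBayes; R 4.3.3), all 15 arrays entered a single model of 5 group means, with two-sided p-values adjusted by Benjamini-Hochberg over all genes and calls at an adjusted p under 0.05. Fold changes carry SE and levels SD. No array was left out, and 3 arrays a group limit the precision. The fit was tested on simulated data with known changes. The 10 genes, the lists and the tests were chosen with earlier results of these data known. All 10 genes are given, with up to 4 genes of each list by smallest p of the F test over the 5 groups, if a group mean reached the median of all gene values. Alternatives were median centring, quantile normalization, leaving out dim genes, averaging or exchanging probe sets, a trended robust variance, fitting only the groups compared, a replicate block and leaving out each array. For the listed genes they were chosen after seeing the data. Figures used Python 3.11.15 and matplotlib 3.10.9.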

Additional observations from a re-analysis of the deposited data

Results flagged for a closer look

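Aldoa moved in opposite directions against control in 2 oncogene groups, and both changes and their difference were called. The difference between NeuT and Src was 0.71 on the log2 scale (limma, adjusted p = 0.000283), with 0.38 in NeuT and -0.33 in Src against control. Both changes against control were lost without some single arrays, as given in the account of Aldoa.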

How the results depend on the processing

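The 10 genes in the 11 comparisons gave 110 fold changes, and 2257 of their 2421 alternative values kept both call and direction. A further 88 lost a call, 38 gained one, and 32 values of 14 fold changes switched sign with no call in either fit. In 6 the sign turned with a call in at least 1 fit, all for Hk1, which was 0.21 for Myc against NeuT, -0.48 for NeuT against Ras and -0.20 for NeuT against Src with the brighter probe set. With the mean of its probe sets these were -0.38, 0.03 and 0.36, and with the dimmer probe set -0.97, 0.54 and 0.92. Over all settings the genes that rose numbered 4 to 8 in the pooled oncogene groups, 2 to 4 in Myc and 4 to 6 in Ras, and those lower in Myc than NeuT 3 to 5, in Myc than Src 2 to 4 and in NeuT than Ras 3 to 5. Other counts moved by over 1.5 times. Those that fell in Src against control went from 2 to 1 with median centring and with a replicate block. Those higher in Myc than NeuT went from 1 to 2 with quantile normalization, without dim genes and with a trended robust variance, and those higher in Myc than Src from 1 to 0 with quantile normalization, the trended robust variance and the replicate block. Those higher in NeuT than Src went from 1 to 2 with the mean of the probe sets or the dimmer Hk1 probe set. Leaving out single arrays gave 1 to 2 genes that fell in Myc, 3 to 5 that rose in NeuT, and 3 to 7 that rose and 1 to 2 that fell in Src against control. It gave 1 to 2 higher in Myc than NeuT, 0 to 1 in Myc than Src and 2 to 5 in Ras than Src. The cause of these shifts was not tested.

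No label says what a replicate number shares, and the arrays were not treated as paired. Same-numbered deviations correlated at -0.08 to 0.12, over 0.1 in 3 of 30 pairs. However, 34 of 60 correlated best with their own number, where 20 would with no pairing. What arrays of the same number share was not tested. With the replicate block, Pfkm passed in Myc (0.31, adjusted p = 0.025, limma) and Src (adjusted p = 0.0349), and Hk1 (adjusted p = 0.0516) and Aldoa (adjusted p = 0.051) were not called in Src. With 3 arrays a group, small changes and genes near background are the least certain.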
